A study of Mus musculus with 9 samples.

Results

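The AP-1 transcription factor family was followed through 9 genes, Fos, Fosb, Fosl2, Jun, Junb, Jund, Atf3, Batf and Maff, taken as the rows of the count table that carry these symbols. Each symbol matched 1 row, so the members were 9 of 56748 genes, and all of them stand among the 53 genes that the table assigns to the basic leucine zipper (bZIP) factors. Expression was measured by RNA-seq of hematopoietic stem cells (HSCs) sorted from mouse bone marrow, with 3 libraries each from young HSCs (yHSCs), Selp_low pre-aged HSCs (Selp_low paHSCs) and Selp_high pre-aged HSCs (Selp_high paHSCs). The yHSCs came from mice aged 6 to 10 weeks and both paHSC groups from mice aged 14 to 16 months, all untreated females on a C57BL/6 background with no transgene named for these libraries. HSCs were gated by the SLAM surface markers in every group, and the paHSCs were divided by surface P-selectin, the adhesion receptor encoded by Selp. The study calls the libraries of a group biological replicates, and whether each came from 1 mouse or from a pool is not given in the sources used here.

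AP-1 is a dimer of bZIP proteins that binds short DNA elements in promoters and enhancers. Proteins of the Jun class pair with each other or with proteins of the Fos class, whereas Fos proteins need a partner, and related bZIP proteins such as Atf3, Batf and Maff pair with these or with other bZIP proteins. Fos, Fosb, Jun, Junb and Atf3 are immediate-early genes, transcribed within minutes of growth factor, cytokine or stress signals that reach them through MAP kinases. In blood-forming cells, AP-1 is known for roles in cytokine responses, in the balance between quiescence and division and in myeloid differentiation.

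To show the DNA that precedes the genes the results turn on, the 250 bases upstream of the RefSeq transcript start were read for all 9 members, of which 8 had 1 listed start and Maff had 3 (RefSeq, GRCm38.p6, which differs from the mm39 coordinates of the count table). The windows of Fos (most abundant member), Jun and Fosl2 (the members that DESeq2 called against yHSCs), Fosb (the member whose paHSC groups did not overlap) and Maff (the member closest to Fosl2 in pattern, second of its starts) follow, 5′ to 3′ on the gene's strand. Capitals mark TGACG, TGACGTCA and TGACATCA, which AP-1 and CREB/ATF proteins are known to bind, found on either strand.
Fos, chr12:85473640-85473889, plus strand: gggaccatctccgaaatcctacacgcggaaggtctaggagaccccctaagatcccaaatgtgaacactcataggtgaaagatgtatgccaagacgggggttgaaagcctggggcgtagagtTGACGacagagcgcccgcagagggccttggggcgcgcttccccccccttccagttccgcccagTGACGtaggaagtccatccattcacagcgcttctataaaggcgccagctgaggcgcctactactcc
Jun, chr4:95052223-95052472, minus strand: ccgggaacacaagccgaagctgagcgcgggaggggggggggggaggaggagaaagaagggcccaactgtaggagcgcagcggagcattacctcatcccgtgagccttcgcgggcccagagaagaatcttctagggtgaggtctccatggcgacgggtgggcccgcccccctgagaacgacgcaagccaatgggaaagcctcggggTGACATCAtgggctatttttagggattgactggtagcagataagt
Fosl2, chr5:32136222-32136471, plus strand: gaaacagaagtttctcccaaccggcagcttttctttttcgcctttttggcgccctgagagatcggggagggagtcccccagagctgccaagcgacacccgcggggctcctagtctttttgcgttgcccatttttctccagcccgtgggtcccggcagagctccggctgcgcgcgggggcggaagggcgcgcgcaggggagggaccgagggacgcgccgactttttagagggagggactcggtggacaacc
Fosb, chr7:19310046-19310295, minus strand: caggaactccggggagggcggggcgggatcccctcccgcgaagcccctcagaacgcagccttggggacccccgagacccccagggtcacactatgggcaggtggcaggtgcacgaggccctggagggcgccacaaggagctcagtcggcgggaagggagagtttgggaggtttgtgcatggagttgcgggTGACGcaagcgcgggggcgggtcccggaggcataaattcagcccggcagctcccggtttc
Maff, chr15:79347270-79347519, plus strand: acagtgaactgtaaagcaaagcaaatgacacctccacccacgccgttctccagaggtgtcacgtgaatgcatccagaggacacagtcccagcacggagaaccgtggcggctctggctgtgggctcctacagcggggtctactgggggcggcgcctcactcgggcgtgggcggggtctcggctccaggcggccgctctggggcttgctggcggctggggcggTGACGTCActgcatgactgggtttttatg

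The classical AP-1 element, searched as TGANTCA on both strands, was in 0 of the 11 member windows, against 6.75% of the 32851 windows of all genes. The 8-base cyclic AMP element TGACGTCA was in 1 member window, that of Maff, 29 bases before the start, and in 1.55% of all windows. Its 5-base part TGACG, which overlaps TGACGTCA, was in 7 of the 11 windows, those of Atf3, Batf, Fos, Fosb, Junb and 2 of the Maff starts, and in 17.8% of all windows. Fos held 2 copies, 129 and 66 bases before the start, and a TATAAA box 33 bases before it. TGACATCA lay 45 bases before the start of Jun and of another Maff start, and in 2.93% of all windows. The Fosl2 window held none of these motifs. The CArG box, the element of serum response factor, was in 0 member windows and in 1.47% of all windows. Sequence farther upstream than the windows was not searched for any motif. A motif missing from a window may therefore still be present elsewhere near the gene. Among the windows with TGACG, those of Atf3, Fos, Fosb, Junb and Maff had 58.4% to 68.8% GC and that of Batf 46.4%. The median of all windows was 52.4% GC, and the part of GC content in the motif counts was not tested. These matches describe the letters of the windows and no binding was measured here.

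Library totals ranged from 24866975 to 35375310 counts, and Selp itself was at 20.5 to 30.02 CPM (counts scaled to the library size and TMM factor) in yHSCs, 29.3 to 109 in Selp_low and 264 to 652 in Selp_high libraries. The 10 most abundant genes held 44.78% of counts in Selp_low replicate 2, 20.95% in Selp_low replicate 3 and 12.51% in yHSC replicate 1. TMM factors of these libraries were 0.5447, 0.7849 and 1.188. In the other libraries the 10 genes held 3.904% to 8.941%. Genes detected ran from 21094 to 34143 over all libraries. All 9 HSC markers examined (Hlf, Mecom, Procr, Slamf1, Kit, Ly6a, Mycn, Fgd5, Hoxb5) were detected in every library, with summed CPM of 648 to 1630 in yHSCs, 456 to 1158 in Selp_low and 1188 to 1865 in Selp_high. Singly, 8 of the 9 were higher in Selp_high than in Selp_low by the edgeR estimate, with a median log2 fold change of 1.53, and 7 of them did not overlap between these groups. edgeR called 0 of the 9, with 8 at an unadjusted p under 0.05, and DESeq2 called 2 higher, or 8 with the replicate number as a block. Over all genes tested, 20.9% did not overlap between these groups and 12.5% had an unadjusted edgeR p under 0.05. edgeR called 0% of all genes and DESeq2 2.28%, or 9.45% with the block. Ly6a went the other way, averaging 528 CPM in Selp_low against 246.5 in Selp_high. Singly, Hlf and Mecom were lowest in Selp_low replicate 2, at 22.8 and 13.0 CPM. The HSC marker sum of that library was 1158 CPM, however, and the lowest sum of all libraries was that of Selp_low replicate 3, at 456 CPM. Markers of other cells were also present. The 8 neutrophil markers, all detected in every library, summed to 12690 to 64780 CPM in yHSCs, 497 to 212100 in Selp_low and 1579 to 41380 in Selp_high, with the highest values in Selp_low replicate 3, yHSC replicate 1 and Selp_high replicate 3. The 8 B and plasma cell markers summed to 157 to 266, 77.9 to 105700 and 370 to 3628 CPM in the same order of groups, highest in Selp_low replicate 2, and only Pax5 was at 0 in 1 library. The 8 megakaryocyte markers summed to 554 to 984, 585 to 2464 and 2981 to 8027 CPM, and Gp1bb was at 0 in all yHSC libraries. The ranges were 248 to 357, 175 to 2014 and 165 to 467 CPM for the 8 monocyte and macrophage markers, 58.4 to 87.4, 450 to 1229 and 55.9 to 122 for the 8 T and NK cell markers, with Gzma at 0 in 3 libraries, and 305 to 2729, 1506 to 3282 and 822 to 1291 for the 8 erythroid markers. The part of the HSC markers and of these other cells in the AP-1 values was not tested, and in sorted bulk samples fewer cells of a type and less RNA per cell cannot be told apart.

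The 9 members covered a wide range of levels. Compared per length, as FPKM (CPM divided by the deposited gene length in kilobases), Fos averaged 632 FPKM over the 9 libraries, Junb 455, Jun 386, Jund 131, Atf3 56.2, Batf 36.2, Fosb 4.85, Maff 4.50 and Fosl2 1.99. Fos, Junb and Jun were the 3 highest of all 53 bZIP genes, Jund ranked 6, Atf3 8 and Batf 11, while Fosb, Maff and Fosl2 ranked 28, 29 and 38. In single libraries Fos stood between rank 16 and rank 557 among all genes of the table by FPKM. Fos, Jun and Junb together held 78.5% to 90.9% of the summed FPKM of the members in every library. No member was at 0 in any library, and the values rest on 32 counts (Maff in Selp_low replicate 2) to 122788 counts (Fos in Selp_low replicate 1).

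The summed level of the members was 1385, 1394 and 2024 FPKM in yHSC replicates 1 to 3, 3913, 2383 and 864.7 in Selp_low replicates 1 to 3, and 2220, 481.7 and 697.2 in Selp_high replicates 1 to 3. Selp_low replicate 1 was highest and Selp_high replicate 2 lowest, and the ranges of all 3 groups overlapped. The ratio of Fos-class (Fos, Fosb, Fosl2) to Jun-class (Jun, Junb, Jund) FPKM was 0.536, 0.279 and 0.605 in yHSCs, 0.838, 0.817 and 0.185 in Selp_low and 1.18, 0.492 and 0.313 in Selp_high paHSCs. Jun-class transcripts therefore exceeded Fos-class transcripts in 8 of 9 libraries, the exception being Selp_high replicate 1.

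**Figure D1:**
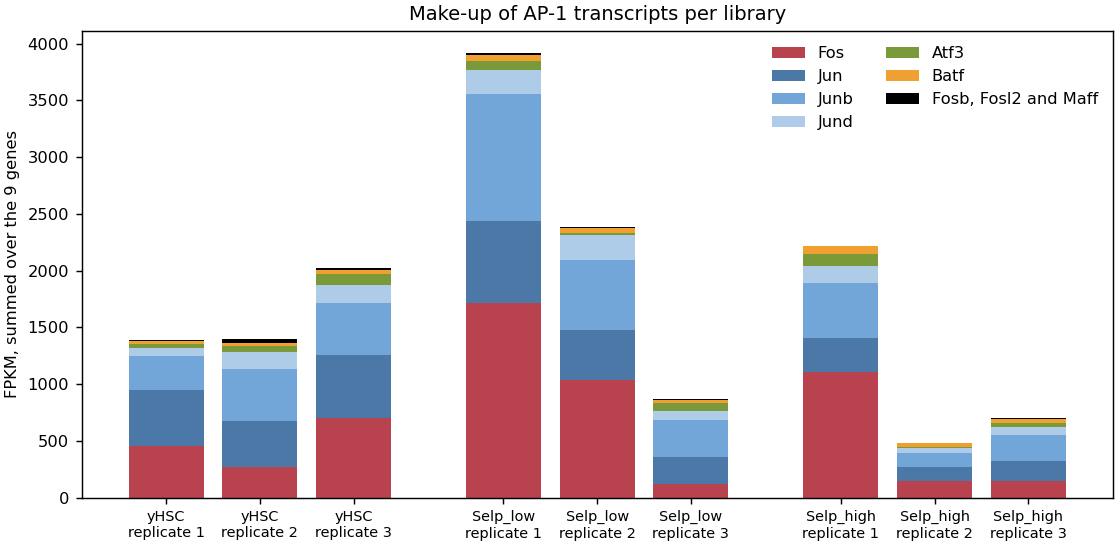
Stacked bars give the FPKM of the 9 AP-1 genes in each of the 9 libraries, with 1 bar for each library and 1 colour for each gene or, for the 3 lowest genes, their sum. Fos, Jun and Junb make up most of every bar, and the bar heights run from 481.7 FPKM in Selp_high replicate 2 to 3913 in Selp_low replicate 1.

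Among the Fos class, Fos itself (ENSMUSG00000021250, mm39 chr12:85520664-85524047, plus strand) is the partner of Jun in the best-known AP-1 dimer. It was at 1076, 631 and 1648 CPM in yHSC replicates 1 to 3. It was at 4024, 2438 and 272 CPM in Selp_low and at 2601, 336 and 345 CPM in Selp_high replicates 1 to 3. Selp_low replicate 3 lay far below its group, Selp_high replicate 1 far above its own, and all 3 groups overlapped. Within a group the highest library exceeded the lowest by 2.61-fold in yHSCs, 14.8-fold in Selp_low and 7.73-fold in Selp_high.

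Fosb (ENSMUSG00000003545, mm39 chr7:19036621-19043976, minus strand), a Fos-class factor with a shorter splice form known to accumulate in neurons, was at 6.06, 43.5 and 47.1 CPM in yHSCs, 67.6, 55.9 and 14.7 CPM in Selp_low and 12.1, 12.6 and 13.2 CPM in Selp_high. The Selp_high libraries were nearly identical and lay below every Selp_low library, but yHSC replicate 1 was lower still. Fosl2 (ENSMUSG00000029135, mm39 chr5:32293145-32315186, plus strand), which encodes Fra-2, a Fos-class factor that lacks the strong transactivating end of Fos, was at 9.31, 67.7 and 36.0 CPM in yHSCs, 10.3, 3.36 and 24.0 in Selp_low and 3.67, 6.72 and 12.1 in Selp_high. The highest values belonged to yHSC replicates 2 and 3, and yHSC replicate 1 lay among the paHSCs.

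Among the Jun class, Jun (ENSMUSG00000052684, mm39 chr4:94937271-94940459, minus strand), which can act as a homodimer or with Fos proteins, was at 1572, 1309 and 1778 CPM in yHSCs, 2330, 1418 and 781 in Selp_low and 952, 396 and 554 in Selp_high. Every Selp_high library lay below every yHSC library, and Selp_high replicate 1 overlapped Selp_low replicate 3. Junb (ENSMUSG00000052837, mm39 chr8:85701113-85705347, minus strand), often an antagonist of Jun and known as a brake on myeloid expansion of HSCs, was at 686, 1049 and 1045 CPM in yHSCs, 2565, 1414 and 739 in Selp_low and 1115, 282 and 523 in Selp_high. Its lowest values were those of Selp_high replicates 2 and 3, and all groups overlapped. Jund, the Jun-class member least dependent on stimulation, ranged from 109 to 276 CPM in yHSCs, 142 to 368 in Selp_low and 82.9 to 257 in Selp_high.

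Among the remaining bZIP partners, Atf3, a stress-induced factor that often represses, ranged from 82.0 to 209 CPM in yHSCs, 37.7 to 170 in Selp_low and 11.4 to 228 in Selp_high, a 19.98-fold spread between Selp_high libraries. Batf, an AP-1 partner of Jun proteins known from lymphocytes and from HSC differentiation after DNA damage, was the steadiest member in yHSCs at 33.6 to 42.0 CPM, against 32.3 to 74.5 in Selp_low and 41.2 to 94.7 in Selp_high. Maff (ENSMUSG00000042622, mm39 chr15:79230821-79243276, plus strand), a small Maf protein without a transactivation domain, was at 2.78, 41.8 and 26.3 CPM in yHSCs, 5.47, 2.11 and 9.70 in Selp_low and 3.98, 3.15 and 9.79 in Selp_high. As for Fosl2, 2 yHSC libraries stood above all paHSC libraries and yHSC replicate 1 did not.

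**Figure D2:**
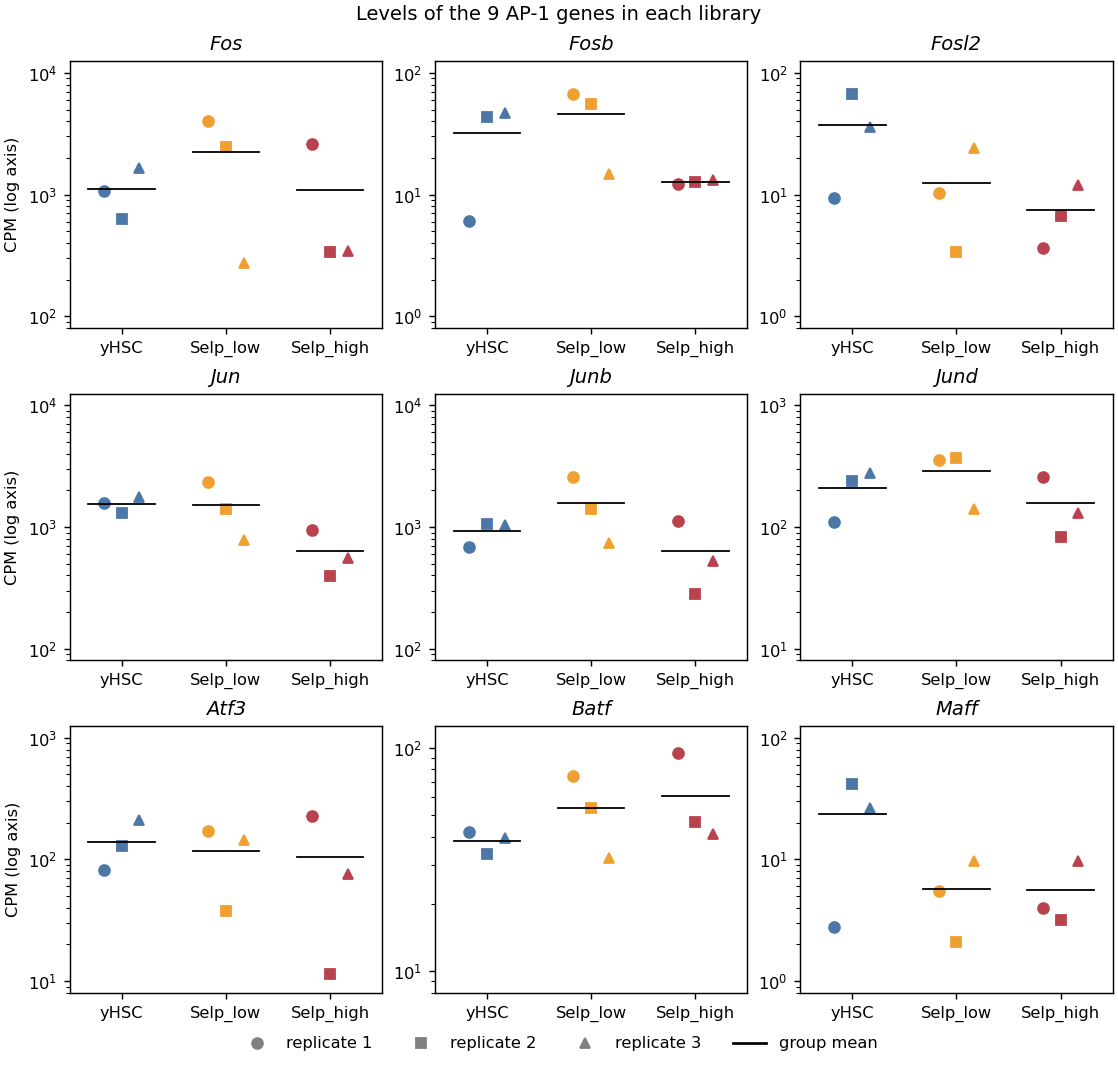
Each panel gives the CPM of 1 AP-1 gene on a log axis, with 1 point for each of the 9 libraries, the replicate number as the symbol and a black bar for the group mean of 3 libraries. Only Jun between yHSCs and Selp_high and Fosb between Selp_low and Selp_high show groups that do not overlap, and yHSC replicate 1 is the lowest yHSC library for Fosb, Fosl2 and Maff.

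In order of group means, Fos, Fosb, Junb and Jund were highest in Selp_low, Jun, Fosl2, Maff and Atf3 in yHSCs and Batf in Selp_high. Mean FPKM of Jun was 487 ± 73.6 (SD, n = 3) in yHSCs, 473 ± 244 in Selp_low and 199 ± 89.8 in Selp_high. Mean FPKM of Fos was 475 ± 217 in yHSCs, 954 ± 801 in Selp_low and 465 ± 555 in Selp_high, so the order of its groups lay within their spread. Mean FPKM of Fosl2 was 3.89 ± 3.02, 1.30 ± 1.08 and 0.773 ± 0.439 in the same order, and that of Batf 27.3 ± 3.07, 38.1 ± 15.0 and 43.2 ± 21.0. Neighbouring groups in these orders overlapped for all 9 members. The groups at the 2 ends did not overlap for Fosb (Selp_low and Selp_high) and for Jun (yHSCs and Selp_high).

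To compare the paHSC fractions, Selp_high was set against Selp_low paHSCs. Of the 9 members, 8 were lower in Selp_high by the edgeR estimate and the median log2 fold change was -0.89, against -0.107 over the 20370 genes tested. Fosb had the largest difference, followed by Junb, Jun, Fos and Jund, whereas Atf3, Maff and Batf were near 0. By edgeR's quasi-likelihood test, which called a gene at an adjusted p of at most 0.05 and a log2 fold change of at least 1 in size, 0 members passed, as did 0 of all 20370 genes (0%). At an unadjusted p under 0.05, 2 of the 9 members and 2555 genes (12.5%) were found.

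The log2 fold change of Fosb was -1.88 (SE 0.547, 95% interval -3.17 to -0.584) with an edgeR adjusted p of 0.338. Its groups did not overlap, a property shared by 20.9% of all genes tested and by 1 of the 9 members. Without Selp_low replicate 3, the library with the highest neutrophil marker sum, edgeR called Fosb, at a log2 fold change of -2.30 with an adjusted p of 0.0488, and 0.223% of all genes, and DESeq2 called Fosb and 5.29% of all genes. Selp_low replicate 3 had the lowest HSC marker sum (456 CPM) and the highest monocyte and macrophage marker sum (2014 CPM) of all libraries. A part of any of these transcripts in the calls without it was not tested. For Jun the log2 fold change was -1.27 (SE 0.526, edgeR adjusted p = 0.392), and for Junb it was -1.31 (SE 0.649, edgeR adjusted p = 0.463). Fos, at -1.06, had a standard error of 1.13 and an interval from -3.72 to 1.61. Jund was at -0.89 (interval -2.15 to 0.368), Fosl2 at -0.75 (-2.52 to 1.03), Atf3 at -0.16 (-2.48 to 2.15), Maff at -0.04 (-1.66 to 1.59) and Batf at 0.17 (-0.871 to 1.21).

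DESeq2, the tool of the study, called 0 of the 9 members among 589 of the 25807 genes with an adjusted p (2.28%), and its adjusted p for Fosb was 0.0735. Libraries of the 2 paHSC fractions with the same replicate number deviated together across all genes, with correlations of 0.188, 0.307 and 0.3 for numbers 1 to 3. No source states a pairing, so the pairs were inferred from the same counts that are compared here. With the replicate number as a block, DESeq2 called 3 members, all lower in Selp_high, against 9.45% of all genes, namely Fosb (log2 fold change -1.64, adjusted p = 0.0107), Jun (-1.22, adjusted p = 0.00628) and Junb (-1.35, adjusted p = 0.00909). In this DESeq2 fit the median log2 fold change was -0.752 over all genes, those with low counts included, and -0.902 over the members. edgeR with the same block called 0 members, with adjusted p-values of 0.204, 0.178 and 0.201 for these genes. Within the pairs, log2 ratios of Selp_high to Selp_low were -1.29, -1.84 and -0.50 for Jun, -1.20, -2.33 and -0.50 for Junb and -2.48, -2.15 and -0.15 for Fosb for replicate numbers 1 to 3. All 3 genes were thus lower in Selp_high in 3 of 3 pairs, as was Jund (-0.45, -2.15 and -0.12). For Fosb any pairing would give this, since its groups did not overlap. Fos was lower in 2 of 3 pairs (-0.63, -2.86 and 0.34). Signs were also mixed for Fosl2 (-1.48, 1 and -0.99) and Atf3 (0.43, -1.72 and -0.91). The same held for Batf (0.35, -0.22 and 0.35) and Maff (-0.46, 0.58 and 0.01). The share of all genes lower in 3 of 3 pairs was not counted.

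To compare early-aged Selp_high cells with young cells, Selp_high paHSCs were set against yHSCs. Here 8 of the 9 members were lower in Selp_high, with a median log2 fold change of -0.561 against -0.033 over the 20017 genes tested, and Batf was the exception at 0.63 (SE 0.369, adjusted p = 0.839). edgeR called 0 members, against 33 of all genes (0.165%), and 3 members and 7.59% of genes had an unadjusted p under 0.05. DESeq2 called 2 members, Jun and Fosl2, both lower, among 596 of 21436 genes (2.78%).

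Jun had a log2 fold change of -1.32 by edgeR (SE 0.35, 95% interval -2.14 to -0.501, adjusted p = 0.313), and by DESeq2 of -1.34 (SE 0.406, adjusted p = 0.038). It was the 1 member of 9 whose groups did not overlap, as was the case for 13.8% of all genes tested. With 1 library left out at a time, DESeq2 called Jun in 1 of 6 fits (without Selp_high replicate 1, where 2.89% of all genes were called) and Fosl2 in 2 of 6 (without yHSC replicate 1, with 4.75% of genes called, or Selp_high replicate 3, with 4.49%). Of the other settings, limma voom with quality weights called Jun (-1.55, adjusted p = 0.0171) and 1.37% of all genes, and edgeR with no filter on low counts called Fosl2 (-2.33, adjusted p = 0.00852) and 1.14% of all genes. DESeq2 called both also with filtering tuned to the threshold (3.26% of all genes) and with the replicate block (3.77%). The replicate numbers did not pair these 2 groups, with correlations of -0.434, -0.434 and 0.0539 for numbers 1 to 3. The calls with the block therefore add no support. Fosl2 had the lowest estimate of the members, with a log2 fold change of -2.37 by edgeR (SE 0.747, interval -4.12 to -0.623, adjusted p = 0.427) and -2.36 by DESeq2 (SE 0.701, adjusted p = 0.031), although its groups overlapped through yHSC replicate 1. Maff followed at -2.10 (SE 0.898, edgeR adjusted p = 0.659) and Fosb at -1.36 (SE 0.655, adjusted p = 0.744). Without yHSC replicate 1, which had the second highest neutrophil marker sum, DESeq2 called Fosb, Fosl2 and Maff, with adjusted p-values of 1.22e-06, 0.000182 and 0.000754, among 836 genes called against 596 with all libraries. Among the yHSC libraries, replicate 1 also had the lowest HSC marker sum (648 CPM) and the highest erythroid marker sum (2729 CPM). Whether neutrophil, HSC or erythroid transcripts had a part in these calls was not tested. Junb was at -0.56 (interval -1.69 to 0.566), Jund at -0.43 (-1.56 to 0.702), Atf3 at -0.42 (-2.47 to 1.63) and Fos at -0.04 (-1.94 to 1.87). The value of Fos depended on Selp_high replicate 1, since the log2 fold change without it was -1.74 and DESeq2 then gave an adjusted p of 0.00471. The neutrophil marker sum of that library was 5808 CPM, and its HSC marker sum, 1865 CPM, was the highest of all libraries.

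To compare early-aged Selp_low cells with young cells, Selp_low paHSCs were set against yHSCs. The members did not share a direction, since 6 were higher and 3 lower in Selp_low, with a median log2 fold change of 0.533 against 0.0826 over the 20437 genes tested. edgeR called 0 members and 0 genes (0%), with 0 members and 11.3% of genes at an unadjusted p under 0.05, and DESeq2 called 0 members among 517 of 17508 genes (2.95%). The 2 groups overlapped for all 9 members, whereas 16.3% of all genes tested did not overlap. The highest estimate was that of Fos at 1.08 (SE 0.885, interval -1.02 to 3.18, edgeR adjusted p = 0.758), followed by Junb at 0.83 (-0.351 to 2.01), Fosb at 0.61 (-1.32 to 2.54), Jund at 0.54 (-0.616 to 1.69), Batf at 0.53 (-0.304 to 1.37) and Jun at 0.02 (-1.07 to 1.10). Maff, at -1.97 (-4.20 to 0.249), and Fosl2, at -1.54 (-3.56 to 0.481), were the lowest and Atf3 was at -0.21 (-1.57 to 1.15). Without Selp_low replicate 3, DESeq2 called Fos at 1.56 (adjusted p = 0.0233) and Fosl2 at -2.43 (adjusted p = 0.0387), and without yHSC replicate 1 it called Maff at -2.52 (adjusted p = 0.011). These fits called 1556 (8.96%) and 2510 (9.01%) of all genes, against 517 with all libraries, and without yHSC replicate 1 the median of all genes was 1.11. The comparisons share libraries, since each group enters 2 of the 3, so their values are not independent of each other.

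**Figure D3:**
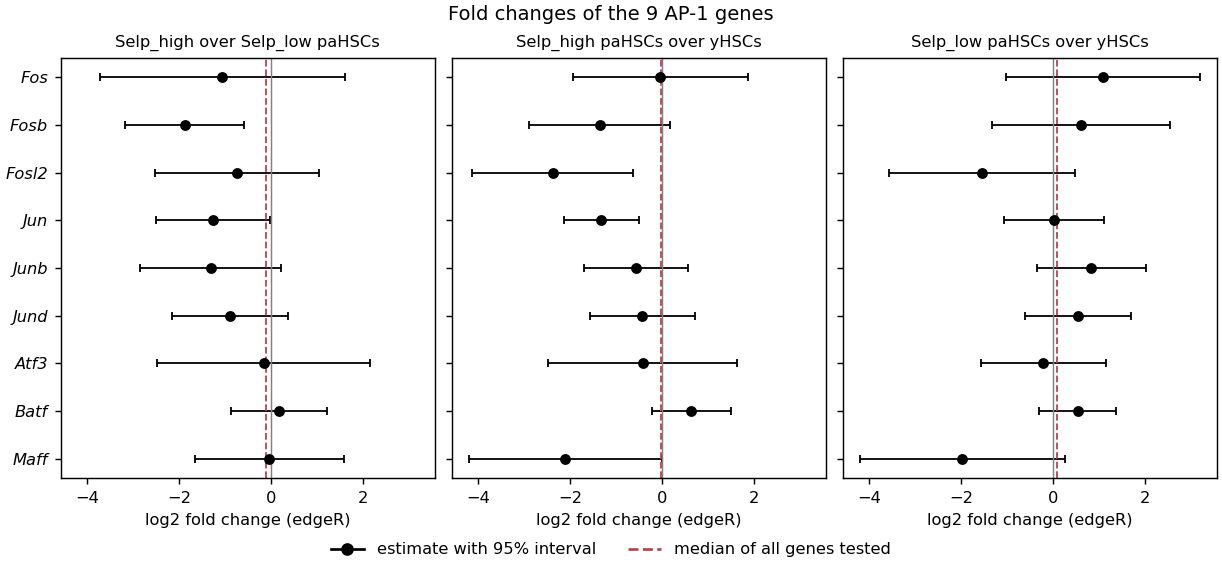
Points give the edgeR log2 fold change of each AP-1 gene and bars its 95% interval (3 against 3 libraries), in 1 panel for each comparison, with the median of all genes tested as a dashed line. The interval leaves out 0 for Fosb and Jun in the first panel and for Jun, Fosl2 and, barely, Maff in the second, and for no gene in the third.

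To see which members varied together, log2 CPM of the 9 members was correlated over the 9 libraries, in 36 pairs. The correlation was positive in 31 pairs, with a median Pearson's r of 0.415. After adjustment over the 36 pairs, 4 passed 0.05 by Pearson and 2 of these by Spearman as well, in 2-sided exact permutation tests. The permutations treated all 9 libraries as exchangeable, so differences between groups and between replicate numbers enter these p-values. How often other gene pairs reach such correlations in these libraries was not counted. Junb and Jund had an r of 0.918 (exact permutation p = 0.00013, adjusted p = 0.00466) and a rho of 0.917 (exact p = 0.00131, adjusted p = 0.0236), with an r of 0.933 without the 2 libraries farthest from the median of Junb and of 0.897 after group means were removed. Fosl2 and Maff had an r of 0.928 (exact permutation p = 0.000303, adjusted p = 0.00546) and a rho of 0.917 (exact p = 0.00131, adjusted p = 0.0236), with an r of 0.781 without the 2 farthest libraries and of 0.922 within groups. The others were Jun with Junb (r = 0.862, exact p = 0.0024, adjusted p = 0.0288, rho = 0.667, exact p = 0.0589, adjusted p = 0.218) and Fos with Junb (r = 0.82, exact p = 0.00389, adjusted p = 0.035, rho = 0.817, exact p = 0.0108, adjusted p = 0.0969). Without the 2 farthest libraries their r was 0.615 and 0.83. Fosl2 and Maff ran apart from the abundant members, with r between -0.37 and 0.18 against Fos, Jun, Junb and Jund. Marker sums of other cells differed between the same libraries, and their part in the correlations was not tested.

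**Figure D4:**
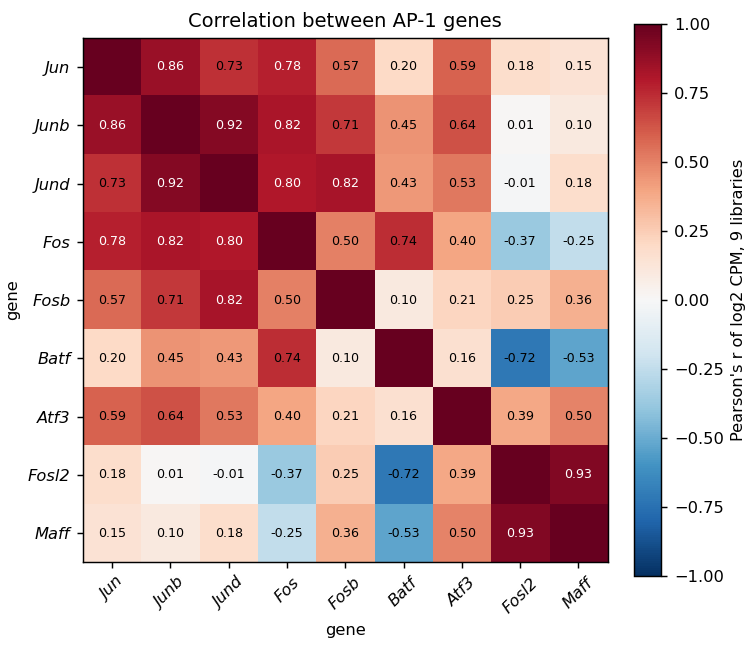
Each cell gives Pearson's r of log2 CPM between 2 AP-1 genes over the 9 libraries, from blue at -1 to red at 1. Jun, Junb, Jund and Fos form a block of r from 0.731 to 0.918, and Fosl2 with Maff a second pair at 0.928.

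The genes whose pattern was most like the mean standardised level of the 9 members, by Pearson correlation over the 9 libraries, were Rnf167 (r = 0.977), Zfp36 (0.973), Ddb2 (0.962), Usp3 (0.949) and Klf2 (0.945). Most like Fos alone were Hddc2 (0.973), Tbc1d10c (0.970), Dexi (0.968) and the long non-coding RNAs Gm48226 (0.961) and Gm26782 (0.956). By Spearman correlation, 3 of the first 5 and 2 of the second 5 stayed among the top 5. Zfp36, which encodes an mRNA-destabilising protein, and Klf2 were also among the immediate-early genes listed below, and these are the highest of 22594 genes, given as a description.

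The other genes of the pathway were taken from lists drawn up with earlier results of these data known. The list of 19 other immediate-early genes, which respond to the same signals as Fos and Jun, was lower in Selp_high than in Selp_low for 17 of the 18 genes tested, with a median log2 fold change of -1.03. It was lower in Selp_high than in yHSCs for 19 of 19, with a median of -1.13, while Selp_low against yHSCs gave 10 higher and 9 lower with a median near 0. edgeR called 0 of them in each comparison, and DESeq2 called 1 lower in the first comparison, 3 lower in the second and 0 in the third. Against Selp_low, the largest differences were those of Egr3 (log2 fold change -2.32, DESeq2 adjusted p = 0.0208), Klf4 (-2.21, 0.0831) and Egr2 (-1.80, 0.161). Against yHSCs they were those of Nr4a3 (-5.51, DESeq2 adjusted p = 0.00604), Nr4a1 (-3.32, DESeq2 adjusted p = 0.00147) and Klf4 (-2.27), with Btg2, an antiproliferative gene, also called at -1.78 (DESeq2 adjusted p = 0.013). Nr4a3 rested on few reads, with 1, 4 and 0 counts in Selp_high against 9, 212 and 30 in yHSCs, so its size is poorly fixed. Nr4a1, an orphan nuclear receptor tied to HSC quiescence, was at 543, 3048 and 2427 CPM in yHSCs and at 278, 35.4 and 305 in Selp_high, and its groups did not overlap. In Selp_low against yHSCs the largest were Nr4a1 (-2.12, edgeR adjusted p = 0.385), Nr4a3 (-1.40) and Egr1 (-0.985). With the replicate block, DESeq2 called 10 of this list lower in Selp_high than in Selp_low, where it called 9.45% of all genes, while edgeR with the same block called 9 genes in all.

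Of the 13 other genes of the wider AP-1 family, Mafa was too low to be tested in any comparison. In Selp_high against Selp_low, 12 were tested with a median of 0.03, 7 higher and 5 lower, and 0 were called by edgeR or DESeq2. Among the genes named here, log2 fold changes were -2.07 for Nrl and 1.83 for Batf2. In Selp_high against yHSCs, 6 were higher and 6 lower, and DESeq2 called Mafk, a small Maf protein like Maff, as lower (log2 fold change -1.29, DESeq2 adjusted p = 0.0328). Its groups did not overlap, at 95.3, 186 and 205 CPM in yHSCs and 52.3, 61.0 and 89.3 CPM in Selp_high. The largest there were Nrl (-2.33), Fosl1 (-1.59) and Batf2 (1.51). In Selp_low against yHSCs, 2 were higher and 9 lower of 11 tested, with log2 fold changes of 1.63 for Maf and -1.55 for Fosl1. Nrl and Fosl1 rested on few reads in some libraries, so their sizes are poorly fixed. Nrl had 0, 70 and 2 counts in Selp_high, 88, 23 and 83 in Selp_low and 244, 0 and 16 in yHSCs. Fosl1 had 29, 3 and 75 counts in Selp_high, 31, 0 and 49 in Selp_low and 39, 171 and 124 in yHSCs.

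The 19 MAP kinases and factors upstream of AP-1 had medians near 0 in all 3 comparisons and 0 of them were called by either tool. The largest of their differences in any comparison was that of Elk3. Map2k3 (0.775), Elk4 (-0.757) and Creb1 (-0.654) led for Selp_high against Selp_low. Against yHSCs, Elk1 (-0.976), Map2k7 (-0.956) and Map2k6 (-0.767) led for Selp_high, and Elk3 (-1.04), Mapk10 (0.952) and Mef2c (0.932) for Selp_low. The size for Mapk10 is poorly fixed, since it rested on 18, 9 and 11 counts in Selp_low against 22, 0 and 3 in yHSCs. Of 16 genes known as AP-1 targets, 14, 12 and 14 were tested, with medians of -0.222, -0.866 and -0.155. edgeR called 0 in each comparison. DESeq2 called Ccnd1, which encodes cyclin D1, as higher in Selp_high than in yHSCs (log2 fold change 1.61, DESeq2 adjusted p = 0.0291), and Hmox1, the heme oxygenase, as lower in Selp_low than in yHSCs (-2.06, DESeq2 adjusted p = 0.024). The largest differences were those of Spp1 (-1.87), Il6 (-1.63) and Plau (-1.60) for Selp_high against Selp_low. They were those of Spp1 (-2.07), Tnf (-1.68) and Ccnd1 for Selp_high against yHSCs, and of Hmox1, Cxcl2 (-1.68) and Plau (1.36) for Selp_low against yHSCs. Il6 and Plau rested on few reads, so their sizes are poorly fixed. Il6 had 8, 68 and 8 counts in Selp_high and 76, 46 and 28 in Selp_low. Plau had 12, 7 and 4 counts in Selp_high, 10, 5 and 31 in Selp_low and 14, 3 and 6 in yHSCs.

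**Figure D5:**
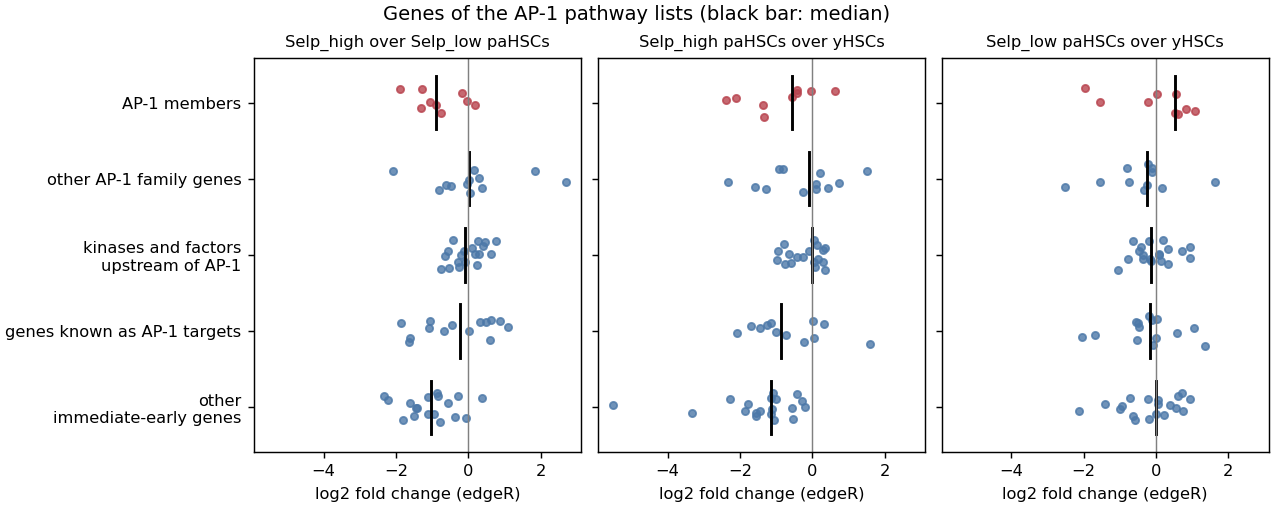
Each point is the edgeR log2 fold change of 1 gene, in 1 row for each list and 1 panel for each comparison, with a black bar at the list's median. The AP-1 members and the other immediate-early genes lie mostly below 0 in the first 2 panels, with medians of -0.89 and -1.03 and of -0.561 and -1.13, and the upstream kinases and factors lie around 0 in all 3.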

How the data were processed

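RNA from sorted HSCs was amplified with a low-input cDNA kit and sequenced. Per the labels and the study's methods, fastp trimmed the reads, HISAT2 (v2.2.1) aligned them to mm39 and featureCounts (v2.0.6) counted them by gene. The authors deposited these raw counts for 56748 genes, not normalized, beside gene lengths. The annotation release, the strand setting and how multi-mapping reads were handled were not given in the sources used here. Groups came from the labels, and ages and sex from the methods. The members and gene lists were chosen with earlier results of these data known.

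For each comparison only its 6 libraries were fitted, with edgeR (v4.0.16, R v4.3.3), its quasi-likelihood test, TMM factors and filterByExpr, which all 9 members passed, and Benjamini-Hochberg adjustment over all genes tested. DESeq2 (v1.42.0, default settings), limma (v3.58.1) voom with quality weights, other normalization factors and filters, 1 fit of all 9 libraries, a replicate block and leaving out each library served as alternatives. The fits were tested on simulated counts. Log2 CPM used a prior count of 2. With 3 against 3 libraries an exact permutation test cannot go below p = 0.1, so none was run between groups. All 9 members are reported, from each other list at most the 3 genes with the largest edgeR fold change in a comparison and any called gene, and the 5 genes most correlated with the members or with Fos. The values of 1 further gene that this rule names are not reported here.

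Pairing of the replicate numbers was checked by correlating deviations from the group means over genes. Between the paHSC groups the correlation was 0.188, 0.307 and 0.3 for numbers 1 to 3, all above 0.1, so these numbers were read as pairs from the data, since no source states a pairing.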

Additional observations from a re-analysis of the deposited data

How the results depend on the processing

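The number of called members was 0 in all 3 comparisons by edgeR with RLE or upper-quartile factors, a mean of at least 10 counts, the newer quasi-likelihood setting, 1 fit of all 9 libraries, no fold-change minimum and the replicate block. For Selp_high over Selp_low, DESeq2 with the replicate block called 3. For Selp_high over yHSCs, edgeR with no filter on low counts called 1, limma voom with quality weights 1, and DESeq2 2, also with the replicate block and with filtering tuned to the threshold (a setting chosen after seeing the data). With 1 library left out, the numbers ranged from 0 to 1 for Selp_high over Selp_low, 0 to 3 for Selp_high over yHSCs and 0 to 2 for Selp_low over yHSCs, while the numbers over all genes ranged from 0 to 2400, 0 to 836 and 0 to 2510. The cause was not tested.

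Of all genes, edgeR called 0, 33 and 0 in the 3 comparisons, against 589, 596 and 517 by DESeq2, 193, 472 and 365 by edgeR with no filter, and 0, 275 and 431 by limma voom. For Selp_high over yHSCs the newer quasi-likelihood setting called 92 and 1 fit of all libraries 19. The replicate block gave 9, 0 and 0 by edgeR and 2151, 641 and 417 by DESeq2. Against yHSCs the numbers did not pair the libraries, with correlations from -0.434 to 0.0724. There 2 of 6 libraries correlated best with their own number for Selp_high and 4 of 6 for Selp_low, against 6 of 6 between the paHSC groups.

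Some estimates near 0 changed sign. For Selp_high over Selp_low, limma voom gave log2 fold changes of 0.16 for Fosl2, -0.36 for Batf and 0.59 for Maff, and Maff was 0.0148 with no filter, 0.0275 with the replicate block and 0.018 by DESeq2 with it. Without 1 library, Fosl2 ranged from -1.28 to 0.12, Atf3 from -1.42 to 0.42, Batf from -0.31 to 0.51 and Maff from -0.70 to 0.56. For Selp_high over yHSCs, Fos ranged from -1.74 to 0.41 and Atf3 from -1.72 to 0.11. For Selp_low over yHSCs, Jun was -0.00766 with RLE factors, -0.0799 with no filter, -0.0278 by DESeq2 under either filtering, -0.0403 in 1 fit of all libraries, and -0.11 and -0.16 with the replicate block by edgeR and DESeq2. Without 1 library it ranged from -0.49 to 0.29, and Atf3 from -0.61 to 0.19. The median of the members for Selp_high over yHSCs (-0.561) ranged by edgeR from -1.72 without Selp_high replicate 1 to -0.208 without Selp_high replicate 2, where 6 of 9 were lower, and was -1.55 by limma voom and -0.97 with the replicate block. In each comparison the members not named here kept their direction under every alternative run. RLE and upper-quartile factors moved the median of all genes by less than 0.1, and RLE factors moved each mean FPKM by less than 1 SD.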

Other observations

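The 9 genes were also set beside all 53 bZIP genes of the table, which include these 9. In Selp_high over Selp_low, 49 bZIP genes were tested, 20 higher and 29 lower, with a median log2 fold change of -0.144. In Selp_high over yHSCs, 16 were higher and 34 lower of 50, with a median of -0.337, and in Selp_low over yHSCs 22 were higher and 27 lower of 49, with a median of -0.117. The mean standardised level of the 9 members was highest in Selp_low replicate 1 (0.922) and lowest in Selp_high replicate 2 (-1.16), and it was -0.43 in yHSC replicate 1 against 0.466 and 0.653 in the other yHSC libraries.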
